A study of Homo sapiens with 4 samples.

Results

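The 9 genes described here are best known from myeloid and lymphoid cells: ITGAX, ITGAM, CD14, CCR7, CD83, CD68, LAPTM5, SRGN and CYBA. They were measured in A549, an established human lung adenocarcinoma cell line, and are 9 of the 16371 genes of the expression table, with 23 of its 56389 transcripts. Every row whose gene name equalled 1 of the 9 symbols was taken, and the transcripts of each gene ID were summed. The genes were chosen from the same comparison of knockdown with control that is described below, so their differences are given as a description, with no test, and support nothing further. The lists of related genes and of cell type markers used below were also chosen with earlier results of these data known. Their counts and medians, set beside those of all tested genes, are therefore description too.

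RNA came from clusters of A549 cells that carried a short hairpin RNA against DUSP23 (shDUSP23, labelled as a DUSP23 knockdown) or a control construct (shMock, labelled wild type). DUSP23 encodes a small dual-specificity protein phosphatase. Each group had 2 libraries, numbered 1 and 2, and both groups share the cell line, the growth as tumour cell clusters and the library kit. The sources used here do not say whether the 2 libraries of a group came from separate cultures, which hairpin was used or what SUS in the titles stands for. Every p-value below therefore rests on the spread between libraries alone, which may be technical. Values are FPKM, fragments scaled by the length of the transcript and by the size of the library, and log2 differences are shDUSP23 minus shMock on the log2(FPKM + 0.5) scale, with their standard error (SE).

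As background, ITGAX (CD11c) and ITGAM (CD11b) are alpha chains of leukocyte integrins, adhesion receptors that reach the cell surface as pairs with the beta chain ITGB2. CD14 binds lipopolysaccharide and passes it to the receptor TLR4, CCR7 is the chemokine receptor that guides lymphocytes and mature dendritic cells to lymph nodes, and CD83 is a surface glycoprotein of mature dendritic cells. CD68 and LAPTM5 are membrane proteins of late endosomes and lysosomes, SRGN (serglycin) is the proteoglycan of secretory granules, and CYBA (p22phox) is the membrane subunit that several NADPH oxidases need to make superoxide.

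Sequence upstream of the start sites is shown for 3 genes: for CD83 because its 2 listed transcripts begin at different sites and the libraries differ in which of them carries the signal, for CD14 because it had the largest difference downwards of the 9, and for ITGAM because it lies next to ITGAX on chromosome 16. The sequences are the 250 bases before the start site, from RefSeq on GRCh38.p14, written 5′ to 3′ on the gene's strand. Capitals mark matches to GAGGAA, the core letters of PU.1-type sites, and to TGANTCA, the AP-1 letters, both searched on both strands.
CD83 upstream of the start of CD83-202, chr6:14117006-14117255, plus strand: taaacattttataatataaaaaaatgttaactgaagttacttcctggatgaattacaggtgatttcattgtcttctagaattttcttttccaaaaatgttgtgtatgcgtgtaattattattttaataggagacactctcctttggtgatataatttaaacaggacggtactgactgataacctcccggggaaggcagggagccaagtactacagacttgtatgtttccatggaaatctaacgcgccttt
CD83 upstream of the start of CD83-201, chr6:14117522-14117771, plus strand: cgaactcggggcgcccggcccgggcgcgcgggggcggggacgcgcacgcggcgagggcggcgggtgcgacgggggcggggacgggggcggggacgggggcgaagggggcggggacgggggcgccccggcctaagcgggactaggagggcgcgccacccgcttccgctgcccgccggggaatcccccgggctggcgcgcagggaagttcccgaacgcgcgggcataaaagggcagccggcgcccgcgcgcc
CD14, chr5:140633176-140633425, minus strand: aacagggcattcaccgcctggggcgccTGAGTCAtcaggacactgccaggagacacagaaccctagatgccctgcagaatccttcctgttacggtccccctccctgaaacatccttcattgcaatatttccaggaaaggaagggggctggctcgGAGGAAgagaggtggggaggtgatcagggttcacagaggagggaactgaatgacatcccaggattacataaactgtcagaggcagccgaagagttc
ITGAM, chr16:31259725-31259974, plus strand: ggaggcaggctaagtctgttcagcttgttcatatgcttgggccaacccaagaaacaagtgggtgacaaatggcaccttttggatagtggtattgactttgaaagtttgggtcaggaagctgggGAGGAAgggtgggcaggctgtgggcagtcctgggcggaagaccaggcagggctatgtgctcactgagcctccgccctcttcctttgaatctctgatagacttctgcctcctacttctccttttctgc

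The windows before the CD83 starts differed in base composition, with 34.8% G or C before CD83-202 and 83.2% before CD83-201, around a median of 58.0% over all 35116 promoter windows. Neither CD83 window held a match. The CD14 window held TGAGTCA 223 bases and GAGGAA 96 bases upstream of the start, and the ITGAM window held GAGGAA 127 bases upstream. Sequence was at hand for 7 start sites of 6 of the genes, the others being CD68, CYBA and LAPTM5. GAGGAA was found in 3 of the 7 windows and in 23.6% of all windows, TGANTCA in 2 of the 7 and in 6.6% of all, and the NF-kB-type decamer in 0 of the 7 and in 1.7% of all. The third GAGGAA match and the other TGANTCA match lay 48 and 100 bases upstream of the CD68 start. These matches describe letters in the windows only.

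The recovered depth was 21272000 and 25283600 fragments for shMock and 26970600 and 42158600 for shDUSP23. The targeted gene, DUSP23, was at 30 and 35.9 FPKM in shMock and 1.71 and 2.71 FPKM in shDUSP23, and it fell (log2 -3.64, SE 0.22, adjusted p = 3.12e-05, limma with Benjamini-Hochberg adjustment). Of 13691 tested genes, 6202 (45.3%) passed the test at an adjusted p of 0.05, 3166 (23.1%) higher and 3036 (22.2%) lower in shDUSP23, and the median log2 difference was 0.03. Without shMock 1 the test called 3935 genes, and without shMock 2 it called 3258. Summed FPKM was 540163 and 578361 in shMock and 438604 and 446982 in shDUSP23, and scaling all libraries to equal sums moved the median to 0.34 and the called genes to 5279 higher (38.4% of 13739 tested) and 1693 lower (12.3%). The share of called genes that were higher was 51.0% as deposited and 75.7% with equal sums.

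Of 10 listed epithelial markers 8 had values and were tested, and they lay at very different levels. KRT8, a keratin of simple epithelia, was the highest at 1144.1 and 1152.8 FPKM in shMock and 916.6 and 998.9 FPKM in shDUSP23. The list summed to 2726.9 and 2628.0 FPKM in shMock and 2109.7 and 2187.6 FPKM in shDUSP23. In the test 2 of the 8 rose and 4 fell, beside 23.1% and 22.2% of all tested genes, with a median log2 difference of -0.30. CDH1 (E-cadherin, the adhesion protein of epithelial junctions) fell from 22.4 and 21.5 to 6.2 and 8.14 FPKM (3.06-fold, log2 -1.56, SE 0.17, adjusted p = 0.000288, limma). EPCAM, an epithelial surface protein, fell from 5.83 and 7.05 to 3.47 and 4.0 FPKM (adjusted p = 0.0254), a call lost with equal sums (0.156), without shMock 1 (0.0781) and without shMock 2 (0.21). The 2 genes of this list that rose were ELF3 and MUC1. ELF3 went from 63.9 and 52.9 to 75.5 and 84.7 FPKM (log2 0.46, adjusted p = 0.0245, limma). MUC1 went from 12.7 and 14.4 to 19.8 and 17.4 FPKM (log2 0.45, adjusted p = 0.0432, limma). The call of ELF3 was lost in 6 alternatives and that of MUC1 in 9. With equal sums 2 of the 8 rose and 1 fell (median 0.04), where 38.4% and 12.3% of all tested genes did so. With quantile normalization 3 rose and 2 fell (median 0.35), where 3020 and 3033 of 13691 tested genes did so. With each library corrected for GC content and length 0 rose and 4 fell (median -0.46), where 2955 and 3062 of 13563 tested genes did so. The epithelial genes named here were chosen after their values were seen. Of 101 listed leukocyte markers 18 had a value used here and 10 were tested, and none of the 18 was at 0 in all libraries. PTPRC (CD45), SPI1, CSF1R and CD3E had no value used here, nor did 20 of 21 monocyte and macrophage markers or any of the 13 granulocyte markers. The markers summed to 99.0 and 103.0 FPKM in shMock and 137.4 and 156.3 FPKM in shDUSP23. Their part in the results below was not tested. In bulk RNA, fewer cells of a type and less RNA per cell cannot be told apart.

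Of the 10 tested leukocyte markers 5 rose and 0 fell in shDUSP23, beside 23.1% and 22.2% of all tested genes. Their median log2 difference was 0.47, against 0.03 over all tested genes. The lists overlap: RAC2, CD40 and LAMP3 are counted again below, among NADPH oxidase genes, co-stimulatory ligands and lysosomal membrane proteins. RAC2, a small GTPase of blood cells, rose from 0.415 and 0 to 2.87 and 3.55 FPKM (log2 2.45, SE 0.39, adjusted p = 0.00151, limma). It reached the filter of a mean of at least 1 FPKM only through shDUSP23, with group means of 0.208 FPKM in shMock and 3.21 in shDUSP23. CD40, a co-stimulatory receptor that epithelial cells can also carry, rose from 13.2 and 10.1 to 26.5 and 35.1 FPKM (log2 1.36, SE 0.19, adjusted p = 0.000772, limma). IL7R, an interleukin receptor chain of lymphocytes, rose from 3.13 and 3.95 to 7.30 and 8.95 FPKM. BATF3 and LAMP3, markers of dendritic cells, rose by 0.52 and 1.01 on the log2 scale, but BATF3 lost its call without shMock 1 (adjusted p = 0.193) and without shDUSP23 1 (0.0819), and LAMP3 lost it without shMock 2 (0.193) and without shDUSP23 1 (0.0702). ADGRE1, a macrophage surface receptor, was at 5.42 and 7.35 FPKM in shMock and 4.70 and 8.51 in shDUSP23. FSCN1, an actin-bundling protein, was at 35.7 and 37.6 FPKM in shMock and 35.2 and 42.7 in shDUSP23. PTPN6, a phosphatase abundant in blood cells, was at 11.9 and 12.2 FPKM in shMock and 15.1 and 17.4 in shDUSP23, and these 3 genes did not pass the test. PTPN6 (adjusted p = 0.057) did pass with equal sums (0.00496), with a mean of at least 5 FPKM (0.0466) and without shDUSP23 1 (0.0376). ZBTB46, a transcription factor of dendritic cells named after its values were seen, was lower in both shDUSP23 libraries, at 2.37 and 1.84 FPKM in shMock and 1.37 and 0.571 in shDUSP23 (log2 -0.87, adjusted p = 0.0812). It passed without shDUSP23 1 (0.00888) and with GC and length correction (0.0232). With equal sums 8 of the 10 rose and 0 fell, where 38.4% and 12.3% of all tested genes did so. With each library corrected for GC content and length 4 rose and 2 fell, where 2955 and 3062 of 13563 tested genes did so.

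All 9 genes passed the filter of a mean of at least 1 FPKM. In 6 of them both shDUSP23 libraries lay above both shMock libraries, a pattern of 39.3% of all tested genes, in 2 they lay below, a pattern of 36.2%, and in 1 the groups overlapped. The median log2 difference of the 9 was 2.20, against 0.03 over all tested genes. Since the genes were chosen from this contrast, nothing is read from these counts or from the gap between the medians.

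**Figure D1:**
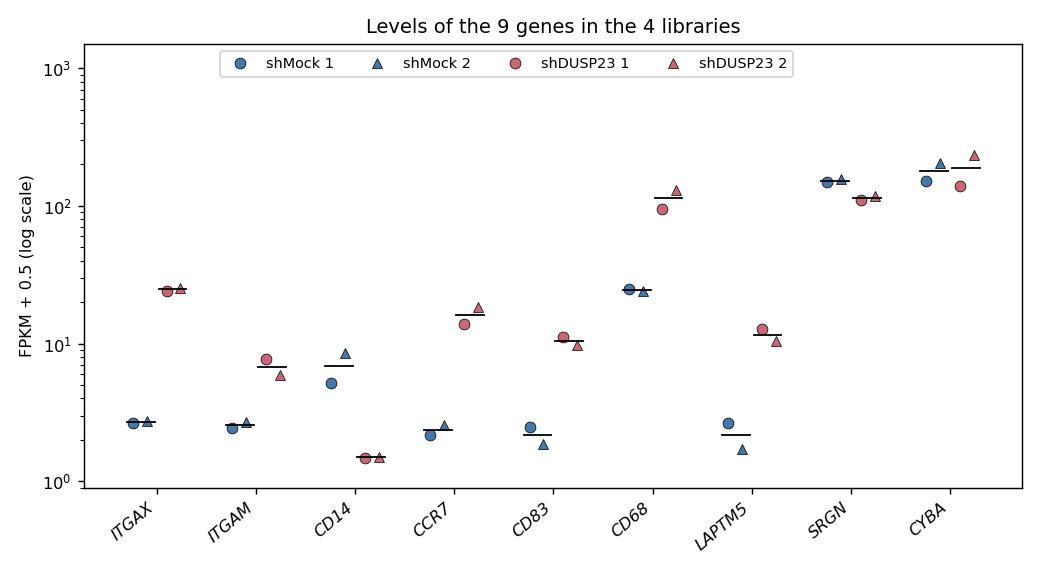
Levels of the 9 genes as FPKM + 0.5 on a log scale, with 1 point for each library (circle, library 1; triangle, library 2) and a line at the group mean. The shDUSP23 points lie above the shMock points for ITGAX, ITGAM, CCR7, CD83, CD68 and LAPTM5, below them for CD14 and SRGN, and among them for CYBA.

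In shMock the genes fell into levels that the FPKM scale, being per length, allows to be ordered. CYBA at 151.0 and 206.1 FPKM and SRGN at 148.6 and 156.3 FPKM stood highest and overlapped each other. CD68 followed at 24.4 and 23.5 FPKM, and CD14 at 4.68 and 8.0 FPKM. The other 5 genes lay together between 1.22 FPKM (LAPTM5) and 2.25 FPKM (ITGAX), where only 6.3% to 14.7% of tested genes were lower in the same library. In shDUSP23 the order changed below CYBA: CD68 and SRGN overlapped, ITGAX came next, followed by CCR7, then LAPTM5 and CD83, which overlapped, then ITGAM, and CD14 was last. CD68 there exceeded 95.1% and 96.6% of tested genes, and CD14 exceeded 2.7% and 3.4%.

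The integrin chain ITGAX (ENSG00000140678, chr16:31355174-31382999, plus strand, GRCh38) had the largest difference of the 9. It was at 2.16 and 2.25 FPKM in shMock and at 23.7 and 25.0 FPKM in shDUSP23. Both knockdown libraries were far above both controls and close to each other. The means were 2.20 ± 0.0668 and 24.3 ± 0.943 FPKM (SD, n = 2 libraries), 11.0-fold higher in shDUSP23 (log2 3.20, SE 0.17), which ranked 8 from the top among 13691 genes. The values rest on 151 and 148 fragments in shMock and 1751 and 3346 in shDUSP23. Across the scalings and the GC and length correction the log2 difference lay between 2.91 and 3.50.

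ITGAM (ENSG00000169896, chr16:31259967-31332892, plus strand) ends 22281 bases before ITGAX begins. It was at 1.95 and 2.21 FPKM in shMock and 7.19 and 5.40 FPKM in shDUSP23. The groups did not overlap, and the shDUSP23 libraries were further apart than those of ITGAX in proportion to their mean. The means of 2.08 ± 0.184 and 6.29 ± 1.27 FPKM (SD, n = 2) differed 3.03-fold (log2 1.39, SE 0.24, rank 576). Leaving out each library in turn gave log2 differences of 1.20 to 1.58, and GC and length correction gave 1.04.

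ITGAX was spread over 4 listed transcripts, and all of them were higher in both shDUSP23 libraries. ITGAX-201, the full-length coding transcript of 4663 bases, was at 0.937 and 0.637 FPKM in shMock and 6.08 and 8.80 in shDUSP23, 9.45-fold higher. ITGAX-204, a coding transcript of 1521 bases confined to the start of the gene (chr16:31355174-31358455), was at 0.494 and 1.07 FPKM and then 9.91 and 9.62, 12.5-fold higher. ITGAX-207, annotated as a retained-intron transcript, was at 0.354 and 0.199 FPKM and then 3.93 and 4.99, 16.1-fold higher. ITGAX-206, the other retained-intron transcript, was at 0.369 and 0.346 FPKM and then 3.75 and 1.59.

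Which ITGAX transcript carried the difference depended on the unit. In FPKM, which divides by length, the short ITGAX-204 made up 40.6% of the difference of the gene sum, ITGAX-201 30.1%, ITGAX-207 18.9% and ITGAX-206 10.4%. In fragments scaled to library depth, ITGAX-201 made up 47.2%, ITGAX-207 27.8% and ITGAX-204 20.9%. ITGAX-204 shares 430 of its 1521 bases with the exons of ITGAX-201 in GENCODE 29, and ITGAX-207 shares 3665 bases, 83.6% of its length, so the division between them rests partly on shared sequence. With the coding transcripts alone the log2 difference of ITGAX was 3.10.

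ITGAM moved between transcripts that hardly differ. ITGAM-201 was at 1.32 and 1.43 FPKM in shMock, 4.01 in shDUSP23 1 and 0 in shDUSP23 2. ITGAM-208 was at 0.456 and 0 FPKM in shMock and 2.51 and 5.40 in shDUSP23. The coding transcripts 201 and 208 have 29 of 30 exons identical, and all 4737 bases of ITGAM-201 lie within ITGAM-208. Their separate values are therefore uncertain, while the gene sum does not depend on how fragments were divided between them. The retained-intron transcript ITGAM-202 was at 0.169 and 0.782 FPKM in shMock and 0.665 and 0 in shDUSP23, from at most 11 fragments in a library.

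**Figure D2:**
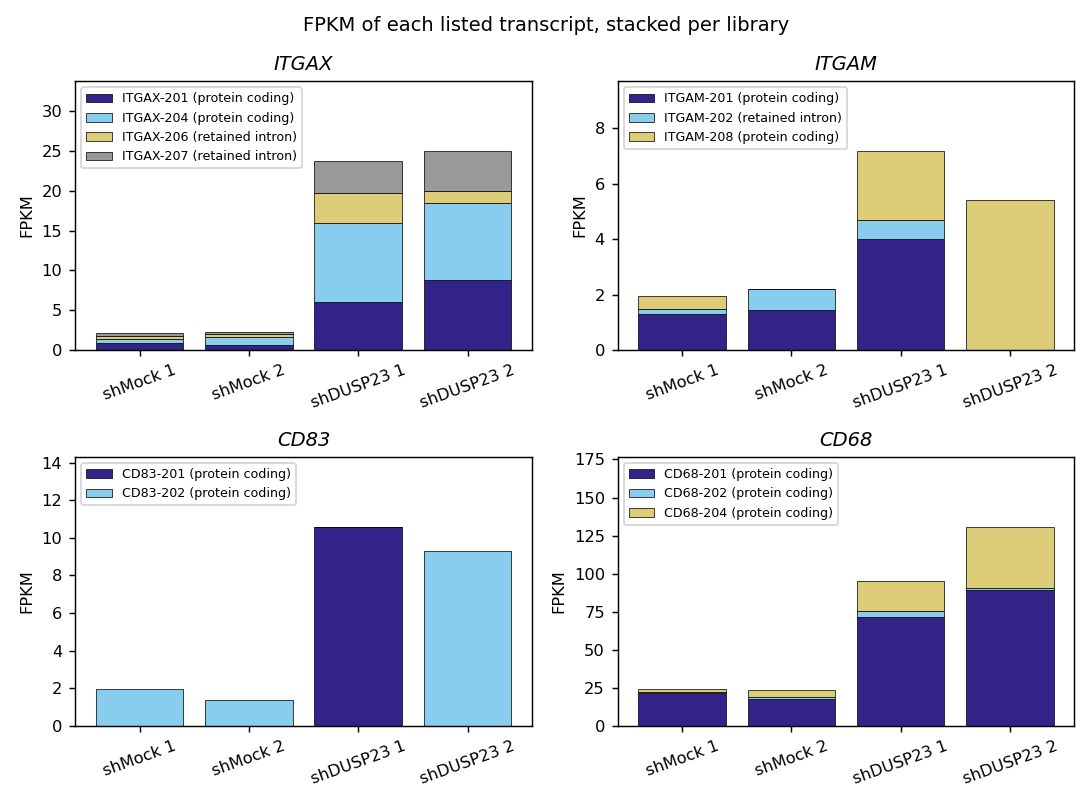
FPKM of each listed transcript of ITGAX, ITGAM, CD83 and CD68, stacked in a bar for each library, with bars starting at 0 and a separate scale for each gene. All 4 ITGAX parts and all 3 CD68 parts are taller in both shDUSP23 libraries, while ITGAM and CD83 change from one coding transcript to another between libraries.

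Of 16 listed partners and ligands of the leukocyte integrins 11 had values and 7 were tested. Among these 2 rose and 1 fell, beside 23.1% and 22.2% of all tested genes. The beta chain ITGB2 and the sister alpha chains ITGAL and ITGAD had no value used here. ICAM1, the counter-receptor of these integrins on other cells, rose from 30.6 and 26.1 to 75.9 and 96.3 FPKM (3.03-fold, log2 1.58, SE 0.15, adjusted p = 0.000156, limma). ICAM2, a related ligand, rose from 1.89 and 1.75 to 3.34 and 7.08 FPKM (adjusted p = 0.018), a call lost without shMock 1 (0.0874), without shMock 2 (0.113) and without shDUSP23 2 (0.0646). ITGAE, the alpha chain that binds E-cadherin, fell from 42.2 and 48.2 to 31.6 and 34.9 FPKM (log2 -0.44, adjusted p = 0.0267), but with equal sums the log2 difference was -0.10 (adjusted p = 0.553). Without shMock 2 the adjusted p of ITGAE was 0.18, without shMock 1 0.0539 and without shDUSP23 1 0.0856. TLN1 (talin, which activates integrins from inside the cell) was at 26.3 and 19.4 FPKM in shMock and 27.5 and 30.7 in shDUSP23 and did not pass. The median of the list was 0.15, and 1 call was left without shMock 1 and 1 without shMock 2. With equal sums and also with GC and length correction 4 genes of the list rose and 0 fell, with medians of 0.44 and 0.40. With equal sums 38.4% of all tested genes rose and 12.3% fell, and with the correction 2955 of 13563 rose and 3062 fell. Over all tested genes the medians under these settings were 0.34 and 0.01.

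CD14 (ENSG00000170458, chr5:140631732-140633175, minus strand) was at 4.68 and 8.0 FPKM in shMock and 0.983 and 0.995 FPKM in shDUSP23. It stood lower in both knockdown libraries, and the controls differed more from each other than the knockdowns did. The means were 6.34 ± 2.35 and 0.989 ± 0.00838 FPKM (SD, n = 2), 6.41-fold lower in shDUSP23 (log2 -2.16, SE 0.30), rank 122 from the bottom. The value rests on 135 and 274 fragments in shMock and 36 and 57 in shDUSP23, all on the single listed transcript CD14-201. Without 1 library the log2 difference lay between -2.51 and -1.80, and with equal sums it was -1.89.

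Of 24 listed genes of Toll-like receptor signalling, the pathway CD14 feeds, 14 had values and 12 were tested. Among these 7 rose and 0 fell, beside 23.1% and 22.2% of all tested genes. The lipopolysaccharide receptor TLR4 and its partner LY96 had no value used here, and TLR2, the other receptor served by CD14, stayed below the filter with 0.363 and 0.638 FPKM in shMock and 1.11 and 1.25 in shDUSP23. TOLLIP, an adaptor that dampens the pathway, rose from 14.6 and 14.7 to 27.3 and 35.6 FPKM (log2 1.06, SE 0.16, adjusted p = 0.00116, limma). IRAK2, a kinase of the receptor complex, rose from 51.3 and 43.0 to 85.5 and 94.0 FPKM (log2 0.93, SE 0.13, adjusted p = 0.000866). TRAF6, the ubiquitin ligase downstream of it, rose from 7.81 and 5.69 to 14.7 and 13.7 FPKM (log2 1.03, SE 0.19, adjusted p = 0.00311). TICAM1 (TRIF), an adaptor of TLR3 and TLR4, rose from 5.39 and 4.27 to 9.32 and 11.1 FPKM, with an adjusted p of 0.00422 that became 0.0526 without shMock 2. The list's median was 0.55, and it had 4 calls without shMock 1 and 4 without shMock 2.

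CCR7 (ENSG00000126353, chr17:40553769-40565472, minus strand) was at 1.67 and 2.06 FPKM in shMock and 13.3 and 17.9 FPKM in shDUSP23. Both knockdown libraries were several times above both controls. The means of 1.86 ± 0.279 and 15.6 ± 3.23 FPKM (SD, n = 2) differed 8.37-fold (log2 2.76, SE 0.22, rank 29), on 77 and 113 fragments in shMock and 780 and 1638 in shDUSP23. The single listed transcript CCR7-201 held all of it, and the scalings gave log2 differences of 2.58 to 3.05.

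The CCR7 ligands CCL19 and CCL21 had no value used here, and of the 24 listed chemokine receptors and CCR7 ligands 5 had values and 2 were tested. ACKR1, an atypical receptor that binds chemokines without G-protein signalling, rose from 4.49 and 5.13 to 13.6 and 17.7 FPKM (3.24-fold, log2 1.59, SE 0.19, adjusted p = 0.000416, limma). CXCR4, the receptor of CXCL12, was at 1.94 and 1.78 FPKM in shMock and 1.47 and 1.48 in shDUSP23 and did not pass (adjusted p = 0.48).

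CD83 (ENSG00000112149, chr6:14117256-14136918, plus strand) was at 1.98 and 1.37 FPKM in shMock and 10.6 and 9.31 FPKM in shDUSP23. The groups were well apart and the knockdown libraries close together. The means of 1.68 ± 0.426 and 9.95 ± 0.911 FPKM (SD, n = 2) differed 5.94-fold (log2 2.28, SE 0.23, rank 94). In the table each library gave the whole gene to 1 transcript: CD83-202 held it in shMock 1, shMock 2 and shDUSP23 2, and CD83-201 held it in shDUSP23 1, with 0 for the other.

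The CD83 transcripts have 4 of 5 exons in common and share 2263 bases, and they differ at the first exon, so that CD83-202 begins at 14117256 and CD83-201 at 14117772, after the upstream windows printed above. Because shDUSP23 1 and shDUSP23 2 were given to different transcripts at 665 and 905 fragments, the values do not tell which start was used in the knockdown. The gene sum is the value that can be compared.

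Among 14 listed co-stimulatory ligands and their ubiquitin ligases 10 had values and 7 were tested. In the test 6 of them rose and 0 fell, beside 23.1% and 22.2% of all tested genes. CD80 and CD86, the ligands that mark antigen-presenting cells beside CD83, had no value used here. CD70, a ligand of the TNF family, rose from 15.2 and 20.6 to 51.3 and 75.2 FPKM (3.53-fold, log2 1.78, SE 0.21, adjusted p = 0.00035, limma). CD276, an immune checkpoint molecule of many epithelial tumours, rose from 16.7 and 15.6 to 38.3 and 39.2 FPKM (log2 1.24, SE 0.13, adjusted p = 0.000217). MARCHF8, a ubiquitin ligase that removes CD86 and other immune receptors from the surface, rose from 7.12 and 5.82 to 15.6 and 18.2 FPKM (log2 1.32, SE 0.18, adjusted p = 0.000695). With CD40, already given, these are the 4 genes of the list with the smallest p. The list's median was 1.24, against 0.03 over all tested genes. Since the list was chosen with earlier results of these data known, nothing is read from this gap.

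**Figure D3:**
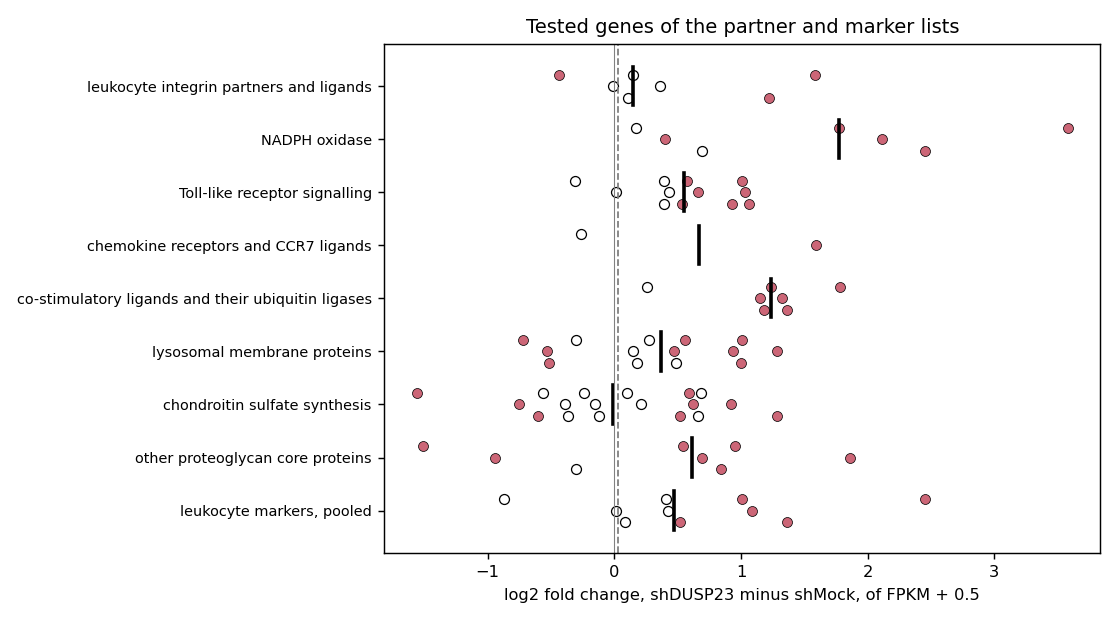
Log2 fold change, shDUSP23 minus shMock, of each tested gene in 9 lists, filled where the adjusted p was under 0.05 and open where it was not. Black bars mark the median of each list and the dashed line the median of all tested genes, 0.03; no point of the co-stimulatory and NADPH oxidase lists lies below 0.

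CD68 (ENSG00000129226, chr17:7579491-7582111, plus strand) was at 24.4 and 23.5 FPKM in shMock and 94.9 and 130.9 FPKM in shDUSP23. The controls were nearly equal, and both knockdown libraries were well above them. The means of 24 ± 0.661 and 112.9 ± 25.4 FPKM (SD, n = 2) differed 4.72-fold (log2 2.20, SE 0.16, rank 113), on 828 and 883 fragments in shMock and 3777 and 7504 in shDUSP23. In FPKM, as distinct from fold, this was the largest difference of the 9.

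All 3 listed CD68 transcripts are coding. CD68-201 and CD68-204 were higher in both shDUSP23 libraries than in both shMock libraries, while CD68-202 was nearly equal in shMock 2 and shDUSP23 2. CD68-201 went from 21.9 and 17.4 to 71.3 and 89.0 FPKM and made up 68.0% of the FPKM difference and 84.5% of the difference in fragments scaled to library depth. CD68-204, of 582 bases, went from 2.42 and 4.63 to 19.7 and 40.4 FPKM, 8.51-fold, and made up 29.8% of the FPKM difference and 12.7% of the fragment difference. It lies wholly within CD68-201, so its share also depends on how shared fragments were divided. CD68-202 went from 0.133 and 1.5 to 3.99 and 1.55 FPKM.

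Genes overlap CD68 on both strands, and the sources used here do not say whether the libraries kept strand. The antisense gene AC016876.1 was at 5.51 and 7.22 FPKM in shMock and 9.91 and 9.79 in shDUSP23 (log2 0.60, SE 0.19, adjusted p = 0.0323, limma), a call lost without shMock 1 (0.212), shMock 2 (0.0582), shDUSP23 1 (0.0519) and shDUSP23 2 (0.0504). AC016876.2, on the same strand as CD68, was at 1.76 and 2.49 FPKM in shMock and 2.16 and 2.65 in shDUSP23 and did not pass. Without strand, reads of CD68 and of these genes cannot be told apart where they overlap.

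LAPTM5 (ENSG00000162511, chr1:30732469-30757774, minus strand) was at 2.14 and 1.22 FPKM in shMock and 12.3 and 9.88 FPKM in shDUSP23. The groups did not overlap, and library 1 was the higher in each. The means of 1.68 ± 0.649 and 11.1 ± 1.72 FPKM (SD, n = 2) differed 6.61-fold (log2 2.44, SE 0.26, rank 68). It had 1 listed transcript, LAPTM5-201, with 99 and 67 fragments in shMock and 722 and 906 in shDUSP23.

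The family members of LAPTM5 that are expressed outside blood cells were lower instead. LAPTM4B fell from 73.4 and 79.2 to 47.7 and 44.6 FPKM (log2 -0.72, SE 0.12, adjusted p = 0.00171, limma). LAPTM4A fell from 181.4 and 187.5 to 129.2 and 127.7 FPKM (log2 -0.52, SE 0.11, adjusted p = 0.00507), a call lost with equal sums (log2 -0.19, adjusted p = 0.195).

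Of 15 listed lysosomal membrane proteins 14 were tested, of which 6 rose, 3 fell and 5 did not pass, with a median of 0.37. Over all tested genes 23.1% rose and 22.2% fell. CD63, a tetraspanin of late endosomes, rose from 278.7 and 301.0 to 551.1 and 606.5 FPKM (2.0-fold, log2 1.0, SE 0.12, adjusted p = 0.000374). LAMP1, a main glycoprotein of the lysosomal membrane, rose from 32.7 and 26.5 to 54.2 and 59.5 FPKM (log2 0.94, SE 0.14, adjusted p = 0.00117). CLN3, a lysosomal membrane protein lost in Batten disease, rose from 20.2 and 15.2 to 43.7 and 42.8 FPKM (log2 1.28, SE 0.16, adjusted p = 0.000454). With equal sums the list had 10 that rose and 1 that fell, where 38.4% and 12.3% of all tested genes did so. Its median was then 0.70, against 0.34 over all tested genes. With quantile normalization 5 rose and 3 fell, where 3020 and 3033 of 13691 tested genes did so.

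SRGN (ENSG00000122862, chr10:69088103-69104805, plus strand) was one of the most abundant of the 9 in the controls, with 148.6 and 156.3 FPKM in shMock and 109.1 and 118.4 FPKM in shDUSP23. The knockdown libraries were both lower, and the libraries of each group were close. The means of 152.5 ± 5.40 and 113.8 ± 6.62 FPKM (SD, n = 2) differed 1.34-fold (log2 -0.42, SE 0.11). The direction depended on the processing: the log2 difference was -0.24 with quantile normalization, -0.09 with equal sums and 0.08 after GC and length correction. SRGN-201 held 97.2% to 99.7% of the gene in each library, and the noncoding SRGN-202 was at 2.46 and 4.45 FPKM in shMock and 0.369 and 0.768 in shDUSP23.

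All 20 listed genes of chondroitin sulfate synthesis, which makes the sugar chains that serglycin carries, had values and 18 were tested. Among these 5 rose, 3 fell and 10 did not pass, with a median of -0.01. Over all tested genes 23.1% rose and 22.2% fell. CHST3, a sulfotransferase, rose from 5.29 and 4.45 to 12 and 13 FPKM (log2 1.28, SE 0.18, adjusted p = 0.000862, limma). B3GALT6, which builds the linker between protein and chain, fell from 4.0 and 5.04 to 1.39 and 1.01 FPKM (log2 -1.56, SE 0.27, adjusted p = 0.00228, and 0.0559 without shMock 2). FAM20B, the kinase of the linker, fell from 12.3 and 12.3 to 7.77 and 6.50 FPKM (log2 -0.75), and CHPF, a chain polymerizing factor, fell from 24.6 and 26.7 to 16.4 and 17.2 FPKM (log2 -0.60). Both calls were lost with equal sums (adjusted p = 0.0849 for FAM20B and 0.163 for CHPF) and without shMock 2 (0.0733 and 0.0818), and that of FAM20B without shMock 1 (0.0649). The list had fewer calls without shMock 1 and also without shMock 2. After GC and length correction 2 rose and 7 fell, where 2955 and 3062 of 13563 tested genes did so.

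Of 15 other proteoglycan core proteins 8 were tested, of which 5 rose and 2 fell, beside 23.1% and 22.2% of all tested genes. SDC4 (syndecan, a heparan sulfate proteoglycan of the cell surface) rose from 80.0 and 73.2 to 267.7 and 289.9 FPKM (3.64-fold, log2 1.86, SE 0.11, adjusted p = 3.12e-05, limma). VCAN (versican, a chondroitin sulfate proteoglycan of the matrix) fell from 30.5 and 26.3 to 9.90 and 9.35 FPKM (2.95-fold, log2 -1.51, SE 0.15, adjusted p = 0.000173). HSPG2 (perlecan) rose from 10.7 and 9.98 to 18.8 and 22.1 FPKM and GPC1 (glypican) from 17.9 and 18.2 to 26.3 and 33.0 FPKM, calls that were lost after GC and length correction (adjusted p = 0.0719 and 0.173). After that correction 1 gene of the list rose and 3 fell, where 2955 and 3062 of 13563 tested genes did so.

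CYBA (ENSG00000051523, chr16:88643289-88651053, minus strand) was at 151.0 and 206.1 FPKM in shMock and 138.9 and 234.4 FPKM in shDUSP23. The lowest and the highest value were both in shDUSP23, so the groups overlapped. The means of 178.6 ± 38.9 and 186.7 ± 67.6 FPKM (SD, n = 2) had a ratio of 1.05 (log2 0.03, SE 0.24), a difference smaller than the spread within either group. Without 1 library the log2 difference ranged from -0.34 to 0.41, and it was 0.37 with equal sums, 0.26 with quantile normalization, -0.03 with median-ratio rescaling and -0.12 after GC and length correction. CYBA-201 held 87.2% to 91.2% of the 6 listed transcripts in every library.

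CYBA serves some NADPH oxidases, while the dual oxidases of the same list do not use it. Of 17 listed NADPH oxidase genes of both kinds 8 had values and 7 were tested. Among these 5 rose and 0 fell, beside 23.1% and 22.2% of all tested genes, with a median of 1.77. The phagocyte catalytic subunit CYBB and the organizer NCF1 had no value used here.

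DUOX2, a dual oxidase of epithelia that makes hydrogen peroxide, rose from 4.19 and 3.71 to 14.8 and 23.7 FPKM (4.87-fold, log2 2.11, SE 0.23, adjusted p = 0.00027, limma). DUOXA1, a maturation factor of the dual oxidases, rose from 0.613 and 0.487 to 3.02 and 3.14 FPKM (log2 1.77, SE 0.30, adjusted p = 0.00196). It too reached the filter only through shDUSP23, with group means of 0.55 FPKM in shMock and 3.08 in shDUSP23. RAC2, given above among the leukocyte markers, is the GTPase of the phagocyte oxidase. CYBC1, a chaperone of the CYBB and CYBA pair, also rose and is named after its values were seen. It went from 50.8 and 56.0 to 68.2 and 73.1 FPKM (adjusted p = 0.0251), a call lost in 7 alternatives, among them without shMock 1 (0.129), without shMock 2 (0.0574) and without shDUSP23 2 (0.0935).

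**Figure D4:**
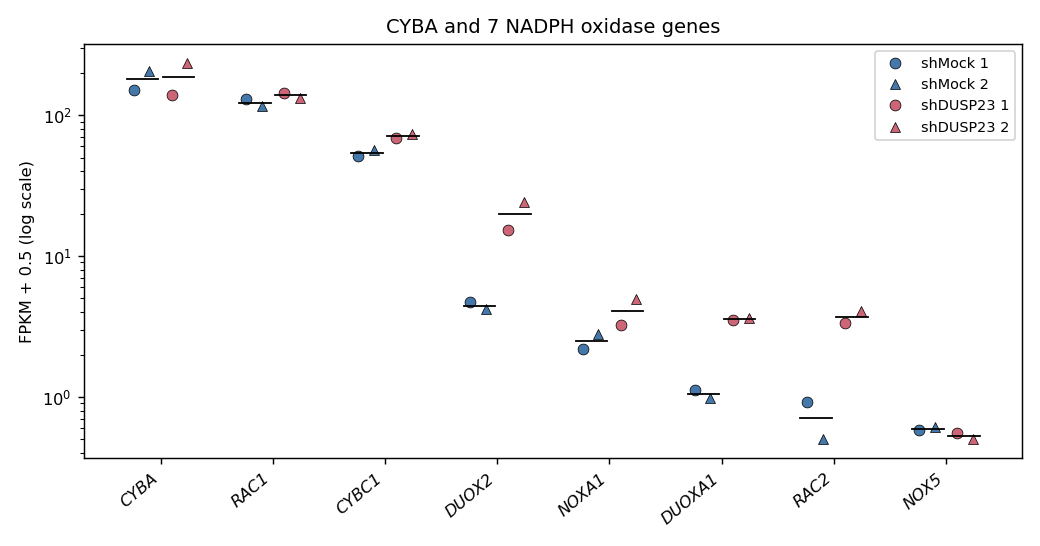
Levels of CYBA and 7 NADPH oxidase genes, as FPKM + 0.5 on a log scale, with 1 point for each library and a line at the group mean. DUOX2 goes from 4.19 and 3.71 FPKM in shMock to 14.8 and 23.7 FPKM in shDUSP23, while the CYBA libraries of the groups overlap.

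Genes close to the 9 on the chromosomes rose and fell at shares near those of all tested genes. Within 100 kb 50 neighbours had values and 43 were tested, of which 9 (20.9%) rose and 8 (18.6%) fell, beside 23.1% and 22.2% of all tested genes, with a median log2 difference of 0.09. Beside ITGAX 1 of 3 tested neighbours rose and 0 fell, and the 1 tested neighbour of ITGAM did not pass. Beside CD14 0 of 13 rose and 2 fell, beside CCR7 1 of 5 rose and 3 fell, and beside CD68 4 of 11 rose and 3 fell. The 1 tested neighbour of LAPTM5 rose, as did 1 of 3 beside SRGN and 1 of 6 beside CYBA. With equal sums 18 of the neighbours rose and 4 fell, where 38.4% and 12.3% of all tested genes did so, and without shMock 2 the calls numbered 9 in all.

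The tested genes with the most similar profiles were taken as those with the smallest Euclidean distance between row-centred log2(FPKM + 0.5) values over the 4 libraries. For ITGAX they were NUPR1 (distance 0.178), AC020765.6 (0.191) and LINC00303 (0.231), and NUPR1 stood at 22.6 and 26.7 FPKM in shMock and 210.2 and 249.0 in shDUSP23. For ITGAM they were AC022613.2, AL161652.1 and TP53INP2 (0.045 to 0.094). For CD14 they were CNTN1 (0.201), AKR1C3 (0.248) and ALDH1A1 (0.256), of which ALDH1A1 stood at 2471.3 and 3206.8 FPKM in shMock and 615.8 and 673.4 in shDUSP23. For CCR7 they were IGHG1 (0.206), LINC01136 (0.218) and SBK2 (0.230), and IGHG1, an immunoglobulin heavy chain gene, was listed at 0 in both shMock libraries and at 2.30 and 3.04 FPKM in shDUSP23.

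CD83 and LAPTM5 shared a near neighbour in profile, the noncoding WAKMAR2 at distances of 0.122 and 0.155. The closest to CD83 were HDAC9 (0.099) and EMP1 (0.102), and the others of LAPTM5 were AL161421.1 (0.1) and SBK3 (0.163). CD68 was closest to ACHE (0.092), ACVRL1 (0.092) and TMEM86A (0.097), and SRGN to WDPCP (0.015), ADPGK (0.028) and ATRX (0.034). CYBA was closest to ADGRE1 (0.048), METTL2B (0.109) and ABCA1 (0.109), genes whose groups also differed by at most 0.13 on the log2 scale. The distances describe 4 libraries and are given with no test.

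The choice of scaling mattered for 2 of the 9 genes. ITGAX, ITGAM, CCR7, CD83, CD68 and LAPTM5 kept log2 differences of at least 1.04 under each of 4 other scalings or corrections, and CD14 kept -1.89 or lower. SRGN was at -0.42 as deposited and lay between -0.48 and 0.08 under them, and CYBA lay between -0.12 and 0.37. With equal sums the median of the 9 was 2.53, against 0.34 for all tested genes, and nothing is read from this gap either.

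**Figure D5:**
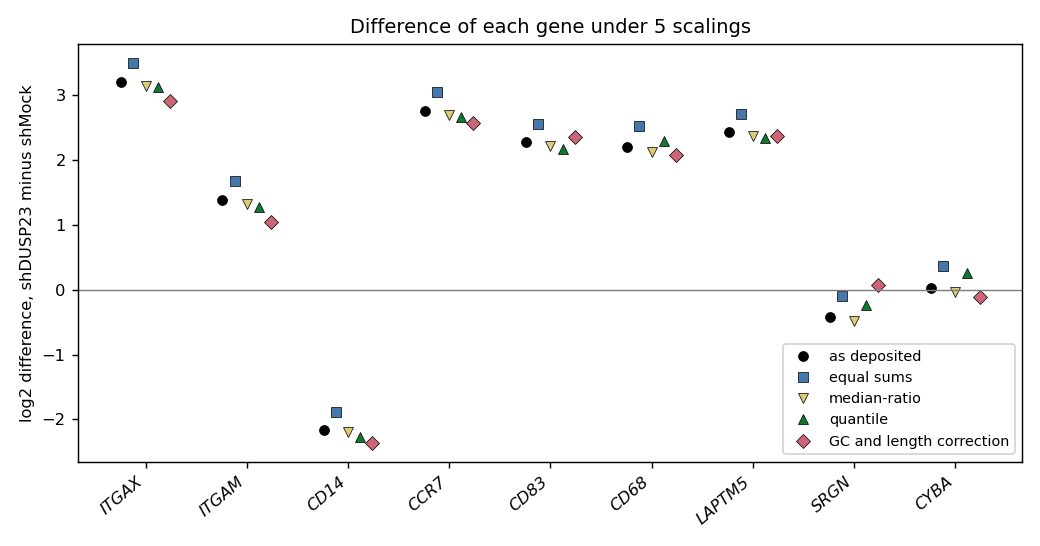
Log2 difference, shDUSP23 minus shMock, of FPKM + 0.5 for each gene as deposited and under 4 other scalings or corrections. The 6 genes higher in shDUSP23 and CD14 stay on their side of 0, SRGN goes from -0.48 with median-ratio rescaling to 0.08 after GC and length correction, and CYBA lies between -0.12 and 0.37.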

How the data were processed

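Gene expression was measured by RNA sequencing in 4 libraries of A549 cell clusters, 2 of shMock and 2 of shDUSP23. The authors deposited FPKM per Ensembl transcript and library. The submitters' processing notes list STAR 2.7.1a, DESeq2 1.32.0 and GRCh38. The sources used here do not give the quantifier, the annotation release, the strandedness or any filter.

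Transcript values were summed per gene ID. A gene entered the test if its mean over the libraries reached 1 FPKM (13691 of 16371). The test was that of limma 3.58.1 in R 4.3.3 (lmFit, then eBayes with a trend on intensity), on log2(FPKM + 0.5), without covariates, two-sided, with Benjamini-Hochberg adjustment over all tested genes and a threshold of 0.05. The 9 genes, the partner and marker lists and the naming rule were chosen with earlier results of these data known. Named were the 9 genes, the 4 tested genes of each partner list with the smallest p, a fixed set of direct partners and leukocyte markers, leukocyte markers with a mean of at least 5 FPKM, genes overlapping the 9, and the 3 closest profiles to each. Some genes that this rule names are not reported here. The 9 genes carry no test. Neighbours were the genes with a span within 100 kb in GENCODE 29, and all 4 libraries were used.

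In 2312 genes with 1 annotated transcript the steps of low FPKM values gave the fragment total of each library. Of the values under 50 fragments, 91.2% (shMock 1), 91.1% (shMock 2), 91.5% (shDUSP23 1) and 93.4% (shDUSP23 2) came within 0.1 fragment of a whole number. Lengths came from GENCODE 29, which held 93.6% of the transcripts, with ends moved to the file's coordinates for the 9 genes. Fragment numbers of genes with several transcripts depend on how the authors divided fragments, so no count test was run. Transcripts were matched by ID, and promoter windows by symbol to RefSeq.

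The alternatives were 0.1 or 1 FPKM as pseudocount, a filter at a mean of 5 FPKM or none, equal sums, median-ratio rescaling, quantile normalization, robust eBayes, eBayes without a trend, the replicate block, leaving out each library, and coding transcripts alone (for single genes, not for counts). Added after the data were seen was a correction of every library for transcript GC content and length (splines with 5 degrees of freedom), with and without the block. On simulated data with 200 changed genes of 13691, the share recovered was 20.3% for a log2 fold change of 0.5, 74.2% for 1 and 100.0% for 2, and 14 of the 142 calls were false. Far fewer genes changed there than the 6202 called in the data, and the adjustment depends on that number. These shares therefore do not give the recovery in the data. Tables and figures were made with matplotlib 3.10.9, pandas 2.3.3, numpy 2.4.6 and Python 3.11.15.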

Additional observations from a re-analysis of the deposited data

How the results depend on the processing

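Leaving out each library in turn gave 3258 to 6391 called genes in place of 6202 over the whole table, 1 to 2 in place of 3 among the integrin partners, 4 to 8 in place of 7 in Toll-like receptor signalling, 1 to 8 in place of 8 in chondroitin sulfate synthesis and 9 to 19 in place of 17 among the neighbouring genes, with the lowest values without a shMock library. A mean of at least 5 FPKM left 3 calls among the NADPH oxidase genes, equal sums gave 8 among the leukocyte markers, and the GC and length correction gave 4 among the other proteoglycans, with or without the replicate block. After that correction SRGN turned to 0.08 and FSCN1 to -0.33, with or without the block. KRT8, at -0.26 as deposited, turned to 0.60 with quantile normalization and was at -0.49 after the GC and length correction. Of the other values of counts under an alternative, 179 kept within 1.5 times the main count. They include the number of the 9 genes above 0, which counts no calls. The other counts add genes that rose and genes that fell, so they can stay alike while directions change. In chondroitin sulfate synthesis 5 rose and 3 fell as deposited, and 2 rose and 7 fell after GC and length correction. The replicate numbers share only a number in the labels: with 2 pairs, the deviations of same-numbered libraries correlated at 0.05, and the replicate block gave 6707 calls over the whole table and an adjusted p of 0.0471 for PTPN6. Depth limits CD14 most, with 36 and 57 fragments in shDUSP23.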
